A study of Mus musculus with 12 samples.

Results

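Cytosolic ribosomal protein genes were followed in the murine small intestine with free feeding and after 12, 24 or 72 h without food. Members were chosen by name: every non-control probe whose gene name in the 12 h scanner output begins with Rpl or Rps and a number, or with Rplp and a number, without the S6 kinases (Rps6k). This gave 65 of the 20280 probes of the array, for 45 gene names. Of these, 29 probes (19 names) belonged to the small subunit, 33 probes (24 names) to the large subunit and 3 probes (Rplp1 and Rplp2) to the stalk of the large subunit. No probe named Rplp0 was found.

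Male FVB mice of 6 weeks of age had free access to food (fed) or had their chow removed. Each array carried Cy3-labelled RNA of full-thickness intestine pooled from 2 mice, against a Cy5-labelled reference of 6 fed mice, on a 60-mer oligonucleotide array, and the dyes were not swapped. Each of the 4 time points had 3 arrays with different pools (12 arrays in all), so n = 3 pools, less any pool on which the spot was marked as an outlier. The fed pools were thus compared with RNA that their own mice had contributed to, and for fed pool 3 the source label of the reference names the 2 mice of that pool, whereas the protocol for labelling speaks of all 6. The labels add that the animals were housed in metabolic cages and warmed by an infrared lamp once 24 h had passed, and that all were killed at the same hour of the morning.

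Ribosomal proteins join ribosomal RNA to form the small subunit, which reads the mRNA, and the large subunit, which links the amino acids. Their mRNAs are among the most abundant of a cell, and many begin with a run of pyrimidines, the 5' terminal oligopyrimidine (TOP) sequence, through which their translation is set by nutrient signalling via mTOR. In the intestine, where the epithelium is renewed continuously, ribosome production is highest in the dividing cells of the crypts.

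The starts of 6 of the genes described here are shown as examples. They hold the pair of paralogs (Rps27 and Rps27l), a gene whose probes differed in call (Rps6), and some of the large subunit genes with a called difference (Rpl9, Rpl12 and Rpl28). The sequences are from RefSeq, build GRCm38.p6, and run 5' to 3' on the gene's strand from 40 bases before to 20 bases after the listed start. Capitals mark the longest run of C and T within 20 bases of that start. Rps27 lies at chr3:90213629-90213688 (minus strand), Rps27l at chr9:66946046-66946105 (plus), Rps6 at chr4:86857348-86857407 (minus), Rpl9 at chr5:65391412-65391471 (minus), Rpl12 at chr2:32961672-32961731 (plus) and Rpl28 at chr7:4792925-4792984 (plus).
Rps27: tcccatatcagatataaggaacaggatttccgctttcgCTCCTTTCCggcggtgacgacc
Rps27l: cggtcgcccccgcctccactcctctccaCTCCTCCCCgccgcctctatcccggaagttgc
Rps6: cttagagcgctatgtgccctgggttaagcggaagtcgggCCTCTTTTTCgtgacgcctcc
Rpl9: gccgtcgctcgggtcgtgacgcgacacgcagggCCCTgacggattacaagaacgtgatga
Rpl12: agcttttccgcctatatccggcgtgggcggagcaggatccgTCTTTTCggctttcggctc
Rpl28: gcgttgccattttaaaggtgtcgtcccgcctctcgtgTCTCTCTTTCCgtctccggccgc

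The run spans the listed start in Rps27 (9 bases), Rps6 (10 bases) and Rpl28 (11 bases). In Rps27l a run of 9 bases ends before the start used, the first by coordinate of the 2 listed for this gene. In Rpl9 the longest run has 4 bases. Among called genes not shown, the longest run has 9 bases in Rpl5, 5 in Rpl27 and Rpl37a, 4 in Rps4x and 3 in Rpl10. Of the 45 gene names, 32 were matched to a promoter, 30 by symbol and 2 by gene number. Where several starts were listed for a gene, the first by coordinate was used, among the members and among all genes. A run of at least 8 pyrimidines within 20 bases of the start was present in 13 of these 32 genes (40.6%), against 16.0% of all 27025 genes of the table. The stretch CCGGAAG, the core of sites for ETS factors, was found on either strand of the 300 bases from 250 before to 50 after the start in 10 of the 32 genes (31.2%), against 9.08% of all genes. AAGATGG, the core of sites for YY1, was found in 5 (15.6% against 6.46%), GGGCGG, the Sp1 core, in 17 (53.1% against 35.6%) and TATAAA in 3 (9.38% against 14.1%), with no motif left out for overlapping another.

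The members fell into 2 classes of brightness with nothing between. In the Cy3 channel, 48 probes had a mean normalized log2 intensity between 10.57 and 14.40, and the other 17 lay between 6.29 and 8.00. Both classes occurred within 7 gene names, so a gene's brightness depended on which of its probes was read. Thus 13 gene names had several probes, and 9 of the members had another name in the scanner output of the fed arrays, mostly that of a cDNA clone. For Rps27l and Rps27 this was an earlier name of the same gene, whereas the probe of Rps28 was called Rpo1-1 there. The gene number given for the Rpl12 probe belongs to a pseudogene, Gm10275, in the RefSeq table. No member was saturated, 57 of the 65 were well above background on all 12 arrays, and 49 had a value on all 12.

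Values are log2(Cy3/Cy5) after background correction and quantile normalization, called the log ratio here, and a difference is that of 2 group means of the log ratio. A difference was called at an adjusted p below 0.05 (limma, Benjamini-Hochberg over all probes). The fed and the 72 h arrays share one file format and range of signal, and the 12 h and 24 h arrays another, so that a change after 12 or 24 h cannot be told apart from the format, whereas 72 h against fed and 24 h against 12 h lie within a format. The 3 comparisons with fed share the same fed arrays. In a full-thickness tissue, fewer cells of a type and less RNA per cell cannot be told apart either.

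A pair of arrays stood apart in the members. The SD of the log ratio over the member probes was 1.04 on the array of 12 h pool 3 and 0.62 on that of fed pool 3, and 0.24 to 0.37 on the other 10. The member log ratios of these 2 arrays correlated negatively (r = -0.74 over 65 probes), as did those of the 483 other probes at least as bright as the bright members (r = -0.72) and of all probes (r = -0.38), although both arrays carry the same dyes in the same direction by the labels. The direction was kept as labelled. These correlations are across probes, which share the array and are not independent replicates.

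The difference lay in opposite channels. On the array of 12 h pool 3, 9 members were at least 1 log2 unit dimmer in Cy5, the reference, than on the other 12 h arrays, and none was so in Cy3. Of all probes 7.31%, and of the other probes as bright 30.9%, were as much dimmer in Cy5 on this array. On the array of fed pool 3, 2 members were at least 1 log2 unit dimmer in Cy3 than on the other fed arrays, 9 were brighter by as much, and none was dimmer by as much in Cy5. Of all probes 3.36%, and of the other probes as bright 21.3%, were as much dimmer in Cy3 there. Rpl28 and Rpl13a showed this most: the raw Cy5 signal of Rpl28 was 649 on the array of 12 h pool 3 and 4165 to 8564.5 on the other 11, and the raw Cy3 signal of Rpl13a was 1687 on that of fed pool 3, against 13131 and 5435.5 on those of fed pools 1 and 2. The named members and the lists are given with these arrays and, where a call against fed changed, without them.

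**Figure D1:**
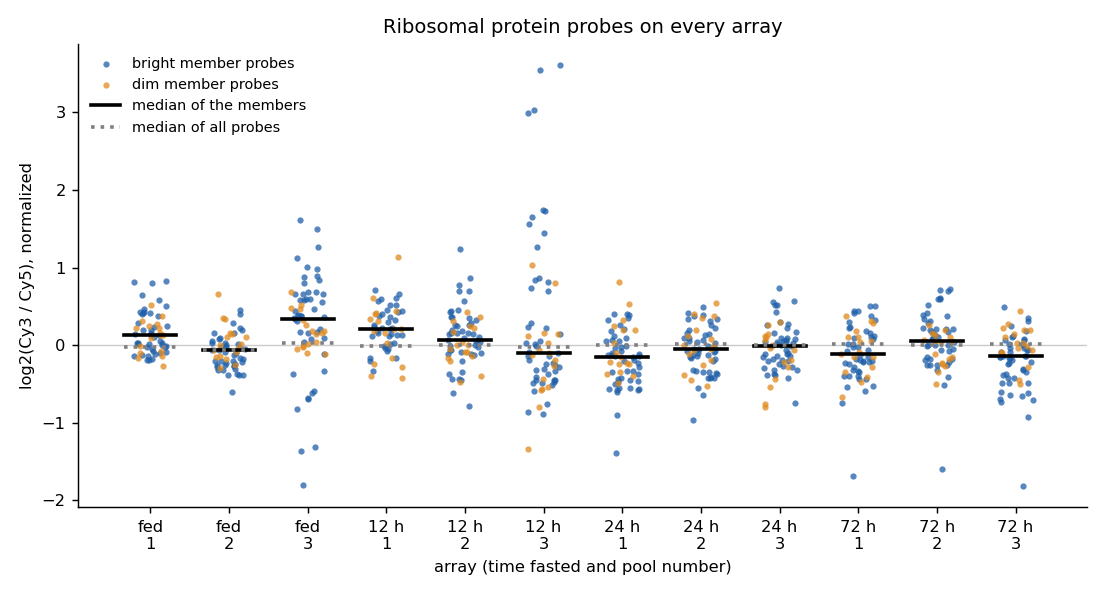
Normalized log2(Cy3/Cy5) of the 65 member probes on each of the 12 arrays (points; blue for the 48 bright and orange for the 17 dim probes), with the median of the members (black line) and of all probes (dotted grey line). The member medians lie between -0.15 and 0.34, and the points spread most on fed pool 3 and 12 h pool 3.

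**Figure D2:**
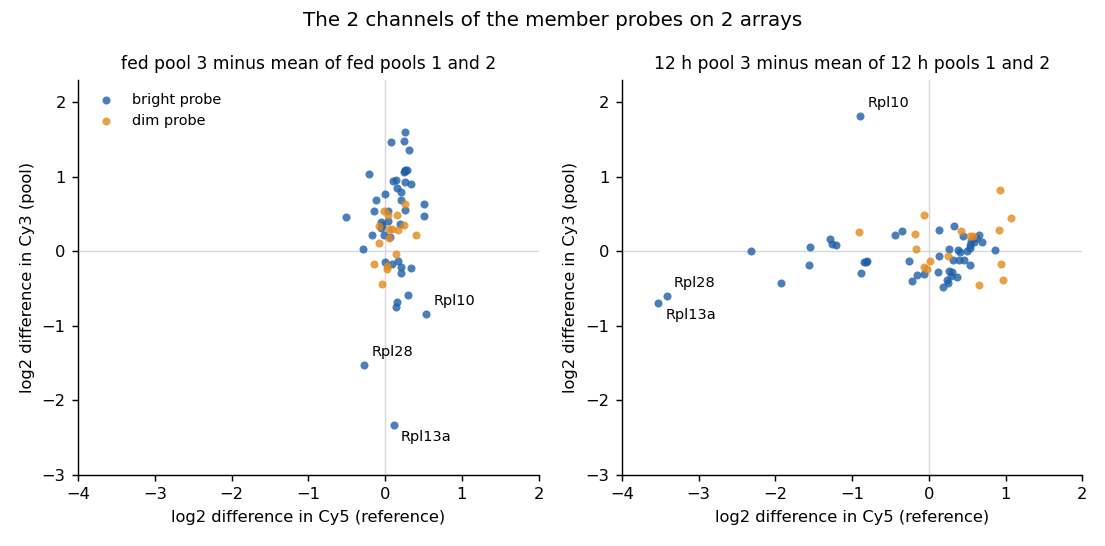
Difference in normalized log2 intensity of each member probe on fed pool 3 (left) and 12 h pool 3 (right) from the mean of the other 2 pools of the time point, with Cy5 (the reference) on the x axis and Cy3 (the pool) on the y axis. On fed pool 3 the members spread in Cy3, down to -2.33 for Rpl13a, and on 12 h pool 3 they spread in Cy5, down to -3.53 for the same probe.

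After 72 h of fasting, Rps27l fell 3.46-fold, the largest fall called among the members in the comparisons with fed. Probes of 3 other genes fell, for Rpl12, Rpl27 and Rps6, and none rose. The share of members called, 4 of 65, stood beside 10.6% of all probes (4.85% higher and 5.7% lower). The median difference of the members was -0.16, against 0.01 for all probes, and 47 of the 65 members (72.3%) were lower than in fed at any size, against 48.9% of all probes. The fasted pools all lay below the fed pools for 16 members and above them for 3, against 20.5% and 21.2% of all probes. Leaving out 1 array at a time, between 1 and 9 members were called, with the fewest without 72 h pool 1, 72 h pool 2 or fed pool 1 and the most without 12 h pool 3. The share of all probes called in these fits is not given. With fed pool 3 and 12 h pool 3 both left out it was 14.6%, so these counts are not read as particular to the members.

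After 24 h, 3 members fell (Rps27l, Rpl9 and a probe of Rpl37a) and none rose, against 10.1% of all probes called (3.79% higher and 6.3% lower). The median of the members was -0.25, against 0.02 for all probes, and 53 of 65 (81.5%) were lower than in fed at any size, against 48% of all probes. The fasted pools lay below the fed pools for 17 members and above them for 6, against 19.9% and 20.5% of all probes. Without fed pool 3 or 24 h pool 1 no member was called at 24 h, without fed pool 1, 24 h pool 2 or 24 h pool 3 only 1, and without 12 h pool 3 the count was 10. The share of all probes called in these fits is not given. With fed pool 3 and 12 h pool 3 both left out it was 16.6%, so these counts are not read as particular to the members.

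At 12 h, 4 members rose (among them Rpl28, Rpl10 and Rps4x) and 2 fell (Rpl12 and a probe of Rpl5), against 10.8% of all probes called (4.81% higher and 5.98% lower). Groups did not overlap for 6 members above and 9 below fed, against 13.9% and 17% of all probes, and 17 members had an unadjusted p below 0.05, against 29.2%. Here the median of the members was -0.11, against -0.02 for all probes, and 40 of 65 (61.5%) were lower at any size, against 52% of all probes. The count was 0 without fed pool 3, 2 without fed pool 1, 4 without 12 h pool 3 and 12 without 12 h pool 1. The share of all probes called in these fits is not given. With fed pool 3 and 12 h pool 3 both left out it was 4.7%, so these counts are not read as particular to the members.

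By subunit the counts were small. Among the 29 small subunit probes, 2 were called higher at 12 h, 1 lower at 24 h and 2 lower at 72 h, with medians of -0.13, -0.28 and -0.16. Among the 36 probes of the large subunit and stalk, 2 were called higher and 2 lower at 12 h, 2 lower at 24 h and 2 lower at 72 h, with medians of -0.10, -0.19 and -0.16. When the 2 arrays were left out, no small subunit probe was called at 12 h, 1 was lower at 24 h and 3 lower at 72 h, and of the large subunit and stalk 3 were higher at 12 h, 4 higher and 4 lower at 24 h and 1 higher and 3 lower at 72 h. Of all probes, 10.8%, 10.1% and 10.6% were called at 12, 24 and 72 h as reported, and 4.7%, 16.6% and 14.6% without the 2 arrays. These counts are not read as particular to a subunit, and the difference between the subunits was not tested.

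**Figure D3:**
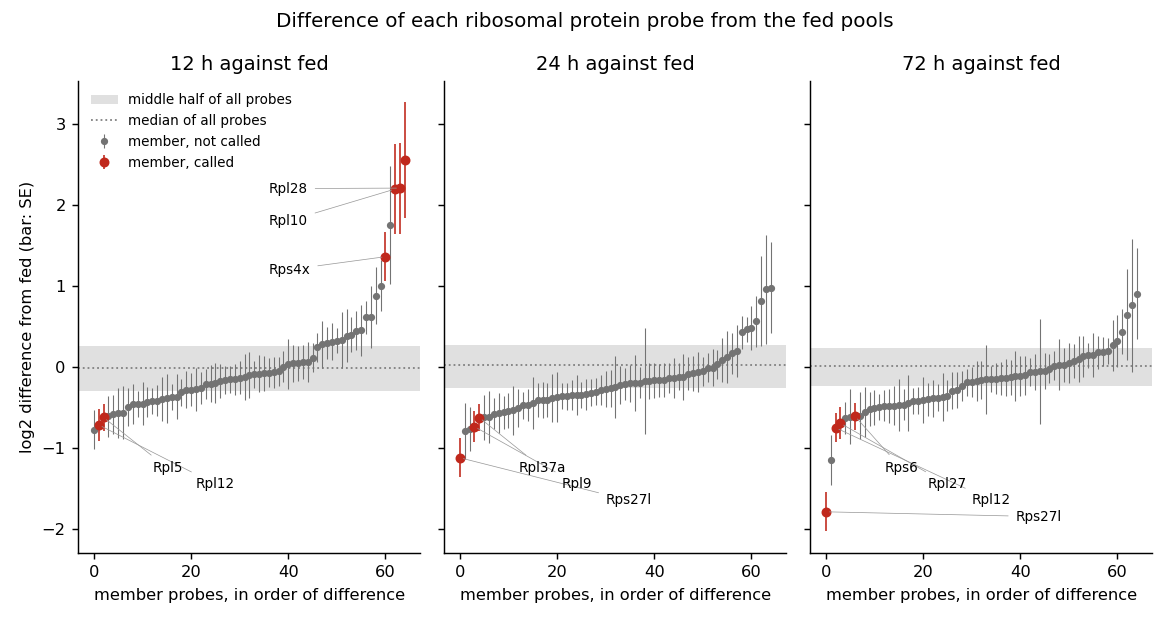
Difference in log2(Cy3/Cy5) from the fed pools of each of the 65 member probes at 12, 24 and 72 h of fasting, in order of size, with its standard error (bars); red points were called at an adjusted p below 0.05, with the names of genes described in the text. The grey band holds the middle 50% of all probes and the dotted line is their median. Rps27l has the lowest difference of the members at 24 and 72 h.

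How the arrays were scaled decided the size of the members' shift. With each array centred on its median and no correction that depends on brightness, the median difference of the members moved to -0.77, -0.76 and -0.73 at 12, 24 and 72 h, and 1 member was called higher and 29 lower at 12 h, 1 higher and 30 lower at 24 h, and 0 higher and 23 lower at 72 h. These were 46.2%, 47.7% and 35.4% of the members, against 14.9%, 19.2% and 14% of all probes called with this centring. The other 483 probes as bright as the bright members then had medians of -0.52, -0.45 and -0.57, and the dim members of -0.36, -0.14 and -0.08. With a loess curve within each array, the members' medians were 0.05, -0.20 and -0.02, with 3 higher and 0 lower called at 12 h and 6 lower each at 24 h and 72 h, against 11.3%, 19.7% and 16.7% of all probes called with loess. The sign at 12 h therefore depended on the scaling, and that at 24 h and 72 h was negative in these settings while its size was not settled.

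The bright members were set beside the other probes as bright at 24 h, where their medians were -0.26 and 0.05 as reported, -0.19 and 0.14 with loess, -0.85 and -0.45 with median centring and -0.08 and -0.03 in the Cy3 channel alone. Without the arrays of fed pool 3 and 12 h pool 3 they were -0.10 and 0.02. At 72 h the corresponding medians were -0.20 and -0.16 as reported, -0.02 and 0.18 with loess, -0.82 and -0.57 with median centring, -0.32 and -0.16 in Cy3 alone and -0.06 and -0.14 without the 2 arrays, so that the order of the 2 classes turned in the last alone. At 12 h they were -0.09 and 0.15 as reported, 0.14 and 0.42 with loess, -0.93 and -0.52 with median centring, 0.13 and 0.01 in Cy3 alone and 0.17 and 0.06 without the 2 arrays, and the order turned in the last 2 of these. These are descriptions of the probes, without a test.

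**Figure D4:**
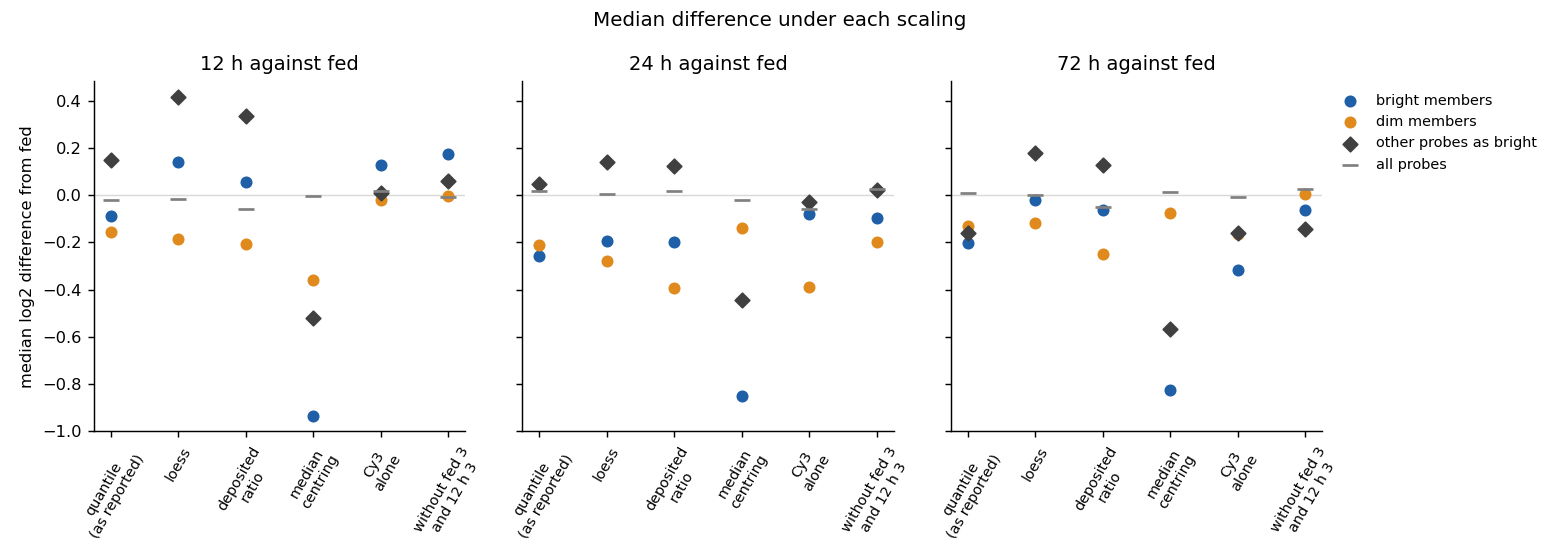
Median log2 difference from fed at 12, 24 and 72 h (y axis) under 6 ways of processing (x axis), for the 48 bright members (blue), the 17 dim members (orange), the 483 other probes as bright (diamonds) and all probes (dashes). With median centring the bright members lie at -0.93, -0.85 and -0.82, and under the other settings between -0.32 and 0.17.

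Without the arrays of fed pool 3 and 12 h pool 3, the counts at 24 h and 72 h changed as well. At 24 h 4 members were then called higher (Rpl23, Rpl28, Rplp2 and a probe of Rpl27a) and 5 lower, and at 72 h 1 higher (Rpl23) and 6 lower, of 62 members that still had a fed value. These were 14.5% and 11.3% of the members, against 16.6% and 14.6% of all probes called in the same fit. Rpl9 and the dim probe of Rpl37a were among those lower at 24 h, and Rpl12 and the called probe of Rpl27 among those lower at 72 h. Rps27l, also counted as lower at 72 h, was -1.50 there against fed pool 2 alone. Among the bright probes that had not been called as reported, 2 joined those lower at both time points. Rpl13a, of the large subunit, was then -0.99 at 24 h and -0.87 at 72 h (adjusted p = 0.0054 and 0.0075), and Rps3, which lines the mRNA entry channel of the small subunit, was -1.09 and -0.91 (adjusted p = 0.0092 and 0.019). On fed pool 3, left out here, Rpl13a differed from the mean of fed pools 1 and 2 by -2.33 in Cy3 and 0.11 in Cy5. Rps3 differed by -0.58 and 0.30. The size of both falls therefore depends on leaving out that array, a choice made after seeing the data.

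Of the small subunit, Rps27l and Rps27 encode paralogs of the same zinc-binding protein, and Rps27l is known as a target of p53. The log ratio of Rps27l was -0.20 and 0.38 in fed pools 2 and 3, with no value for pool 1. It was -0.21, -0.79 and -0.49 in the 12 h pools, -1.39, -0.96 and -0.74 in the 24 h pools and -1.68, -1.60 and -1.82 in the 72 h pools. All fasted pools lay below both fed pools, and those of 72 h lay below all others. The difference from fed was -0.59 at 12 h (SE 0.24, adjusted p = 0.13), -1.12 at 24 h (SE 0.24, adjusted p = 0.014) and -1.79 at 72 h (SE 0.24, adjusted p = 0.00074), that is 2.18-fold and 3.46-fold lower at the later time points. At 72 h the difference ran from -2.14 to -1.50 under 11 other settings. It was called in every setting and every fit without 1 array that kept both fed pools. With no value for fed pool 1, a fit without fed pool 3 sets the fasted pools against fed pool 2 alone. Such a fit gave -1.50 at 72 h and -0.83 at 24 h, with or without 12 h pool 3. Without fed pool 2, fed pool 3 alone was left. At 24 h, of the fits without 1 array that kept both fed pools, only that without 24 h pool 1 lost the call. In the Cy3 channel alone, Rps27l was -1.12 at 24 h (adjusted p = 0.0081) and -1.63 at 72 h (adjusted p = 0.0016), while its reference signal differed by 0.00 and 0.16.

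Rps27 was followed on a single bright probe. Its log ratio was 0.23, -0.09 and -0.82 in the fed pools, 0.37, -0.07 and 1.65 in the 12 h pools, -0.56, -0.35 and -0.38 in the 24 h pools and -0.59, -0.51 and -0.92 in the 72 h pools. The 2 extreme values came from the arrays that stood apart, and the fed pools overlapped each fasted group. Rps27 differed from fed by 0.88 at 12 h, -0.20 at 24 h and -0.45 at 72 h and was called at none of them (adjusted p = 0.11, 0.75 and 0.47). Without the 2 arrays, Rps27 was -0.74 at 72 h (adjusted p = 0.015). Whether the probes of Rps27 and Rps27l cross-hybridize was not tested.

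Rps6, the small subunit protein phosphorylated by the S6 kinases, had 5 probes. On the dim one (A_65_P01684) the log ratio was 0.25, 0.14 and 0.52 in the fed pools, 0.33, 0.04 and 0.03 in the pools of 12 h, -0.40, -0.18 and 0.06 in those of 24 h and -0.41, -0.24 and -0.28 in those of 72 h. The 24 h and 72 h pools lay below the fed pools, and the 72 h difference of -0.61 was called (SE 0.17, adjusted p = 0.033), while that at 24 h was -0.48 (adjusted p = 0.087). The 4 bright probes did not share this: they differed from fed by -0.16 to 0.01 at 72 h and by -0.23 to -0.14 at 24 h, with fed and fasted pools overlapping. On the brightest of them (A_65_P07974) the log ratio was -0.07, -0.20 and 0.31 in the fed pools and -0.40, 0.08 and -0.09 at 72 h. The call of the dim probe held in 6 of 11 other settings (adjusted p from 0.0087 to 0.076), not without the 2 arrays, and it was lost on leaving out fed pool 1, fed pool 3 or any of the 72 h pools (adjusted p up to 0.14).

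Rps4x, the X-linked copy of a core small subunit protein, rose at 12 h. It was at 0.01, -0.38 and -0.59 in the fed pools, 0.35 and 1.72 in 12 h pools 2 and 3, 0.18, 0.22 and 0.09 at 24 h and 0.12, 0.21 and 0.01 at 72 h. Its 12 h difference was 1.36 (SE 0.31, adjusted p = 0.017). In Cy3 alone the difference was 0.31 (adjusted p = 0.28). The call was lost without fed pool 3. Without 12 h pool 3, only 12 h pool 2 had a value, and the difference from the fed pools was 0.67.

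Among the large subunit genes, Rpl10, which joins the particle last and is needed for the subunits to associate, and Rpl28 rose at 12 h. For Rpl28 the log ratio was -0.18, -0.05 and -1.37 in the fed pools, 0.60, 0.87 and 3.55 in the 12 h pools, 0.38, 0.42 and 0.52 in the 24 h pools and 0.37, 0.61 and 0.12 in those of 72 h. Every fasted pool lay above every fed pool, and the highest and the lowest value were those of the 2 arrays that stood apart. The difference from fed was 2.21 at 12 h (SE 0.56, adjusted p = 0.026), 0.97 at 24 h (adjusted p = 0.28) and 0.90 at 72 h (adjusted p = 0.35). Without the 2 arrays it was 0.85 at 12 h (adjusted p = 0.025) and 0.56 at 24 h (adjusted p = 0.035), so that it remained called at 12 h at a smaller size. The call was lost without fed pool 1 or fed pool 3 alone (adjusted p up to 0.12). In Cy3 alone the 12 h difference was 1.06 (adjusted p = 0.042).

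For Rpl10 the log ratio was 0.20, -0.06 and -1.31 in the fed pools, 0.57, 1.24 and 3.61 in the pools of 12 h, 0.35, 0.39 and 0.52 in those of 24 h and 0.15, 0.42 and 0.19 in those of 72 h. The 12 h pools lay above the fed pools, with a difference of 2.19 (SE 0.56, adjusted p = 0.026). It was 0.83 without the 2 arrays (adjusted p = 0.042), and the call was lost without fed pool 3 alone. In Cy3 alone the sign turned to -0.71 (adjusted p = 0.55). There, 12 h pool 1 had raw signals of 458 in Cy3 and 890 in Cy5, against 3540 to 19609.5 in Cy3 on the other 11 arrays, and the spot carried no outlier mark.

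Rpl12, a protein at the base of the stalk, fell at 12 h and 72 h. The log ratio of its probe was 0.51, 0.16 and 0.66 in the fed pools, -0.06 and -0.49 in 12 h pools 2 and 3, -0.09 and -0.15 in 24 h pools 2 and 3 and -0.43, -0.25 and -0.25 at 72 h. All 7 fasted values lay below the 3 fed values. The difference was -0.72 at 12 h (SE 0.20, adjusted p = 0.042), -0.56 at 24 h (SE 0.20, adjusted p = 0.094) and -0.75 at 72 h (SE 0.18, adjusted p = 0.019). In Cy3 alone it was -0.13 at 12 h (adjusted p = 0.68) and -1.10 at 72 h (adjusted p = 0.0016), and the reference signal of the probe was higher at 12 h by 0.58. Without the 2 arrays it was -0.65 at 72 h (adjusted p = 0.019), and at 12 h only pool 2 was left. At 72 h the call was lost without fed pools 1 or 3 or 72 h pools 1 or 2 (adjusted p up to 0.099), and at 12 h it held in 4 of 12 fits without 1 array. Of these 12 h fits, those without 12 h pool 2 or 3 left a single 12 h pool with a value.

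Rpl9, which lies near the stalk base, fell at 24 h. Its log ratio was 0.65, 0.20 and 0.39 in the fed pools, 0.02, 0.06 and 0.70 in the 12 h pools, -0.42, -0.33 and -0.24 in the 24 h pools and 0.11, 0.09 and -0.04 in those of 72 h. The 24 h pools were the lowest, and those of 72 h lay between them and the fed pools. The difference was -0.74 at 24 h (SE 0.19, adjusted p = 0.026), -0.36 at 72 h (adjusted p = 0.26) and -0.15 at 12 h (adjusted p = 0.62). Without the 2 arrays it was -0.75 at 24 h (adjusted p = 0.0082), and in Cy3 alone -0.56 (adjusted p = 0.066). The call was lost without fed pools 1 or 3 or any 24 h pool (adjusted p up to 0.11).

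The 2 probes of Rpl37a, a zinc-finger protein of the large subunit, differed in brightness. On the dim one (A_65_P02770) the log ratio was 0.13, -0.08 and 0.47 in the fed pools, -0.28, -0.05 and -0.26 in the pools of 12 h, -0.48, -0.45 and -0.44 in those of 24 h and -0.35, -0.18 and -0.44 in those of 72 h. Its 24 h and 72 h pools lay below the fed pools, and the difference was -0.63 at 24 h (SE 0.16, adjusted p = 0.029) and -0.50 at 72 h (adjusted p = 0.07). The 24 h call was lost without fed pools 1 or 3 or any 24 h pool (adjusted p up to 0.097). The bright probe (A_65_P20548) was at -0.10, -0.61 and 0.90 in the fed pools and -0.56, -0.20 and -0.18 at 24 h, where fed and fasted overlapped and the difference was -0.38 (adjusted p = 0.45).

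Rpl5 carries 5S ribosomal RNA into the large subunit and can bind Mdm2. On its bright probe (A_65_P15308) the log ratio was 0.42, 0.02 and 0.08 in the fed pools, -0.33, -0.44 and -0.58 in the 12 h pools, -0.34, -0.16 and 0.06 in the 24 h pools and -0.33, -0.26 and -0.16 in those of 72 h. The 12 h pools were lowest, with a difference of -0.63 (SE 0.16, adjusted p = 0.028). In Cy3 alone the sign turned to 0.20 (adjusted p = 0.45), and the reference signal was higher by 0.83 at 12 h (adjusted p = 0.0019). The dim probe (A_65_P02155) was at 0.22, 0.34 and 0.26 in the fed pools and differed from fed by -0.16 at 12 h (adjusted p = 0.57). The call of the bright probe was lost without fed pools 1 or 3 or 12 h pools 2 or 3 (adjusted p up to 0.11), and without the 2 arrays (-0.61, adjusted p = 0.067).

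Rpl27 had 2 dim probes, of which 1 was called at 72 h; the difference between them was not tested. On A_65_P00900 the log ratio was 0.51, 0.66 and 0.18 in the fed pools, 0.32, -0.16 and -0.06 in the pools of 12 h, -0.25, 0.08 and 0.11 in those of 24 h and -0.28, -0.51 and 0.03 in those of 72 h. It fell at 72 h, by 0.70 on the log2 scale (SE 0.20, adjusted p = 0.034), with all 3 pools below the fed ones. This call was lost without fed pools 1 or 2 or 72 h pools 1 or 2 (adjusted p up to 0.15). On A_65_P08394 it was 0.22, 0.11 and -0.02 in the fed pools, -0.24, -0.20 and -0.53 in the 12 h pools, -0.34, -0.39 and -0.06 in the 24 h pools and 0.31, 0.16 and 0.44 in those of 72 h, so that the 72 h difference was 0.20 (adjusted p = 0.49). The second of these probes carries the name of a cDNA clone in the output of the fed arrays.

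The stalk proteins, which recruit the translation factors that use GTP, were represented by 3 probes, and none was called in a comparison with fed as reported. Rplp1 on its bright probe, the brightest of all members, had a fed value for pool 3 alone (0.66); it was at 0.66, 0.78 and 0.23 in the pools of 12 h, 0.40, 0.49 and 0.74 in those of 24 h and 0.08, 0.34 and -0.24 in those of 72 h. With a single fed pool, from an array that stood apart, no comparison with fed is made for this probe. On its dim probe the difference was 0.38, 0.12 and 0.32. Rplp2, on a dim probe, was at -0.27, -0.25 and 0.16 in the fed pools, 1.13, 0.43 and -0.57 in the 12 h pools, 0.82, 0.37 and 0.12 in the 24 h pools and -0.11, -0.11 and -0.06 in those of 72 h. Its differences were 0.45, 0.56 and 0.03 (adjusted p = 0.37, 0.27 and 0.97). In Cy3 alone Rplp2 was called higher at 24 h (1.07, adjusted p = 0.0017). Without the 2 arrays Rplp2 was called higher at 12 h (1.04, adjusted p = 0.032) and at 24 h (0.70, adjusted p = 0.044).

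**Figure D5:**
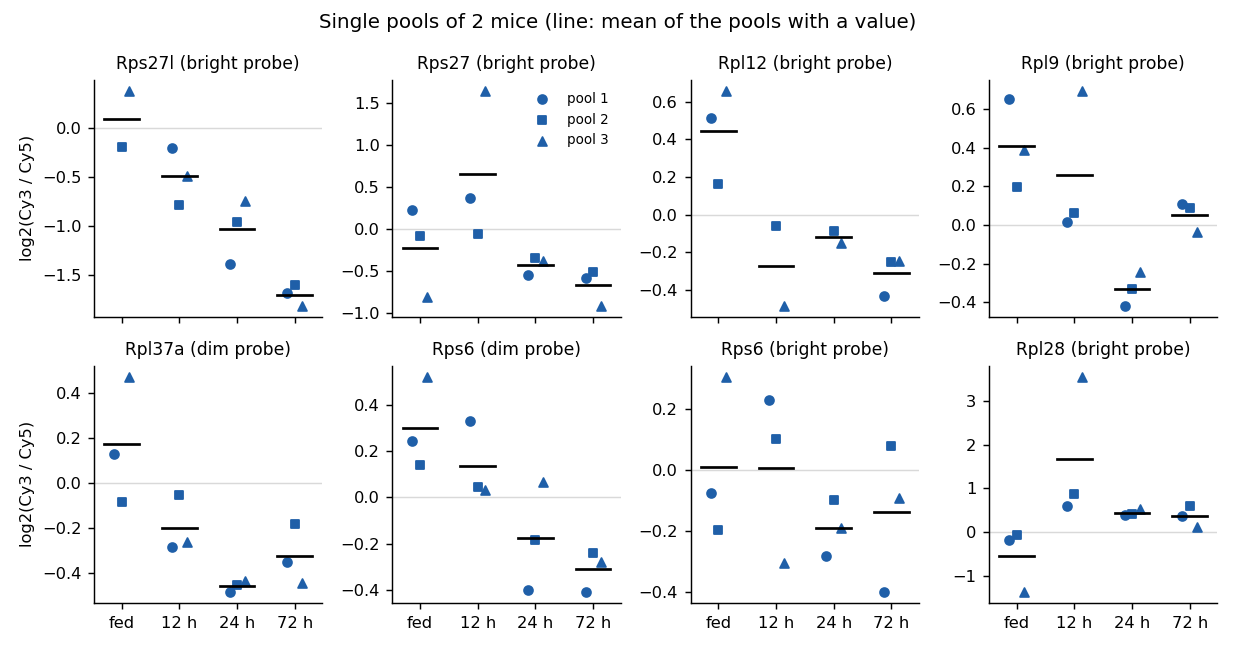
Normalized log2(Cy3/Cy5) of 8 member probes in the single pools (points; shapes give the pool number) at each time point, with the mean of the pools with a value (line). The y axes differ. The mean of Rps27l is lower at each later time point, with single pools down to -1.82, while Rps27 and Rpl28 take their extreme values on fed pool 3 and 12 h pool 3.

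Between the fasted time points few members differed. From 12 h to 24 h none was called, against 2.9% of all probes (limma), while 15 members had an unadjusted p below 0.05, against 21% of all probes. By direction, 1.23% of all probes were called higher and 1.67% lower. From 24 h to 72 h a probe of Rpl27 (A_65_P08394) rose by 0.56 (SE 0.16, adjusted p = 0.038), against 10.6% of all probes called (5.93% higher and 4.68% lower). From 12 h to 72 h, also with 10.6% of all probes called (5.84% higher and 4.75% lower), the same probe rose by 0.63 (SE 0.16, adjusted p = 0.024) and 3 fell: Rps27l by 1.21 (adjusted p = 0.0049), Rps27 by 1.32 (adjusted p = 0.027) and a dim probe of Rpl27a (A_65_P12906), of the large subunit, by 0.93 on the log2 scale (adjusted p = 0.0096). The Rpl27a probe was at 0.27, -0.06 and 0.48 in the fed pools, 0.42, 0.36 and 0.80 in the pools of 12 h, -0.10, 0.35 and -0.19 in those of 24 h and -0.48, -0.23 and -0.50 in those of 72 h, so that its 72 h pools lay below all others. It differed from fed by -0.63 at 72 h (adjusted p = 0.053). Without the 2 arrays, the fall from 12 h to 72 h was called for Rps27l (-1.20, adjusted p = 0.0033), Rps27 (-0.83, adjusted p = 0.009) and the Rpl27a probe (-0.79, adjusted p = 0.011). Among fits without 1 array, that of Rps27l was called in all 12, that of Rpl27a in all but 1 (without 72 h pool 1) and that of Rps27 in 8 (not without 12 h pool 3 or any 72 h pool), while the rise of Rpl27 from 24 h was called in 5.

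The Cy5 channel held the reference, which by the labels was the same on all arrays but for the doubt about fed pool 3. In it, 15 of the 65 members differed from fed at 12 h, 9 at 24 h and none at 72 h, against 21.8%, 20.6% and 0% of all probes. From 12 h to 24 h, within a format, 2 members were called higher and 4 lower in Cy5. Of all 20280 probes, 1316 were higher and 1460 lower there. The reference signal thus differed between the 12 h and 24 h arrays too, and not between the file formats alone. In Cy3 alone, set across arrays, 4 members were higher and 4 lower at 12 h, 3 higher and 11 lower at 24 h and 0 higher and 3 lower at 72 h, against 14.8%, 24.6% and 8.42% of all probes called (8.73%, 13.1% and 4.25% lower). The 3 lower at 72 h in Cy3 were Rps27l, Rpl12 and a probe of Rpl6 (A_65_P18255), which had a log ratio in 1 fed and 1 72 h pool.

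Other ribosomal and translation genes were read on the same arrays. Among the ribosomal proteins with other names was Lamr1 (Rpsa, of the small subunit), on 2 probes. A probe of Lamr1 differed from fed by -0.75, -1.14 and -0.84 at 12, 24 and 72 h (adjusted p = 0.046, 0.009 and 0.027). Its other probe had a fed value for pool 3 alone and differed from it by -0.17, -0.24 and 0.18, which is not read as a comparison with fed. With the arrays of fed pool 3 and 12 h pool 3 left out, the first probe was -0.35 at 12 h, where it was no longer called (adjusted p = 0.28), and -0.99 and -0.69 at 24 and 72 h (adjusted p = 0.004 and 0.018). Mitochondrial ribosomal proteins, which serve the translation of mitochondrial mRNA, had 48 probes for 42 names. Of these, 2 were called higher and 9 lower at 12 h, 1 higher and 7 lower at 24 h and 1 higher and 14 lower at 72 h, with medians of -0.13, -0.26 and -0.38. Among them Mrpl36, Mrpl51, Mrpl15 and Mrpl20 differed from fed by -1.33, -1.27, -1.25 and -1.15 at 72 h (adjusted p = 0.0012, 0.006, 0.0024 and 0.011), whereas the 2 probes of Mrps25 were called in opposite directions (-0.60 and 2.59). In the fit without the 2 arrays, 0 mitochondrial probes were higher and 3 lower at 12 h, 1 higher and 16 lower at 24 h and 1 higher and 19 lower at 72 h, and these 72 h calls of Mrpl36, Mrpl51, Mrpl15, Mrpl20 and Mrps25 were still made. The difference between mitochondrial and cytosolic ribosomal proteins was not tested.

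A list of translation factors and other genes whose mRNAs are of the TOP class, among them Tpt1, Hnrpa1 and Nap1l1, had 15 probes for 10 names. Of these probes 3 were called higher and 2 lower at 12 h, 1 each at 24 h, and 2 higher and none lower at 72 h. Those higher included Eef2, the elongation factor that moves the ribosome along the mRNA, with differences of 2.26, 1.77 and 1.63 at 12, 24 and 72 h on 1 probe (adjusted p = 0.0046, 0.012 and 0.012) and of 2.88 at 72 h on the other (adjusted p = 0.0049). Eef1a1, which delivers aminoacyl-tRNA, was lower on 1 of its 4 probes at 12 h (-0.78, adjusted p = 0.022). Leaving out the 2 arrays, 4 of the TOP probes were higher and none lower at 12 h, 4 higher and 1 lower at 24 h and 2 higher and 1 lower at 72 h. Both probes of Eef2 were then called at each time point, from 1.17 to 2.77, and that of Eef1a1 was not called at 12 h (-0.52, adjusted p = 0.095), while another of its probes was lower at 72 h (-0.67, adjusted p = 0.038).

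Markers of cell types moved alongside. Of the crypt proliferation markers, 14 probes for 9 names, 1 was called higher and 1 lower at 12 h. There were 2 higher and 2 lower after 24 h. After 72 h, 3 were called lower (Ccnb2, Cdc2a and Pcna, from -1.01 to -0.89) and none higher. At any size, 10 of the 14 probes were lower and 4 higher at 72 h, against 48.9% of all probes lower. The summed normalized Cy3 level of the 12 probes with all values was 2595 to 2988 in the fed pools, 3653 to 3949 at 12 h, 3837 to 5012 at 24 h and 2166 to 2517 at 72 h. Of the 5 B and plasma cell probes, the one that differed most from fed at 12 h (3.84) had a 12 h value for pool 3 alone. That pool's array stood apart, so this is not read as a rise of these markers. Of the 5 probes, 1 was lower at 24 h and 3 were lower at 72 h, with a summed level of 653 to 758 at 72 h against 2653 to 4190 in the fed pools. Of 7 smooth muscle probes, 4 were higher at 12 h, 2 at 24 h and 2 at 72 h (summed level 4234 to 4769 fed and 5453 to 6603 at 72 h), and of 5 enterocyte probes 2, 0 and 1 were higher (80948 to 132702 fed and 103323 to 109089 at 72 h). The goblet cell marker found, Agr2, was lower at 72 h (-1.43, adjusted p = 0.0018). Markers of T cells (2 probes), macrophages (3), enteroendocrine cells (2) and exocrine pancreas (1) had none called against fed, and of 3 Paneth cell probes 1 was higher at 12 h. Markers of adipose tissue and erythroid cells were not found, and every marker probe found was well above background on some array. On the other 10 arrays alone, crypt proliferation had 1 higher at 12 h, 3 higher and 2 lower at 24 h and 4 lower at 72 h, smooth muscle 4, 3 and 2 higher, enterocytes 2 higher at 12 h, 2 higher at 24 h and 1 higher and 1 lower at 72 h, and B and plasma cells 3 lower at 72 h only. In that fit T cell markers had 1 lower at 24 h and 1 at 72 h, macrophages 1 higher and 2 lower at 24 h and 1 lower at 72 h, Paneth cells 2 lower at 24 h and 1 at 72 h, and enteroendocrine cells 1 higher at 72 h. The lower calls of macrophages and of Paneth cells came from the same 2 probes of Lyzs, a gene in both lists. These were -0.76 and -1.08 at 24 h, and 1 of them was called at 72 h (-1.14). Csf1r, the other macrophage probe, was higher at 24 h (0.52), and Mmp7, the other Paneth cell probe, was not called. The part of the markers in the members' differences was not tested.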

How the data were processed

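Agilent Mouse Development arrays (60-mer, 2 colours) were read by the authors with Feature Extraction 6.1.1, and the deposited files give, per spot, median intensity and local background intensity in each channel, neither corrected nor normalized, flags, and a log10 ratio of Cy5 over Cy3. The deposited value table held that log10 ratio with its sign turned, so that scale and direction are known and it was not centred by gene; the decimal point had been moved in some cells, which were rescaled or left out. Of 21446 spots, 1075 controls and 91 without the same probe name in all files were left out. Intensities were corrected with normexp (offset 50), the 24 channels were quantile normalized, spots of a probe were averaged, and log2(Cy3/Cy5) of all 12 arrays was fitted with limma 3.58.1 (R 4.3.3 and data.table, version 1.17.8) as 4 group means. P-values were adjusted by Benjamini-Hochberg over all probes, with calls at 0.05. Spots marked as outliers were left out and saturated ones kept. The number of arrays limits the precision. The scripts were tested on simulated data. Promoters were read with Python 3.11.15 and pandas 2.3.3, and figures drawn with matplotlib 3.10.9. Members named with their values were the called ones with the largest differences in each comparison, the stalk genes, paralogs with their canonical gene, Rps6, and genes whose probes differed in call. Rpl13a, Rps3, Rpl23, Rpl6 and the genes of other lists were named after their values were seen. The members and lists were chosen with earlier results of these data known. Ribosomal protein genes have many processed pseudogenes, and cross-hybridization of the probes was not tested. The values of 2 genes are not reported here by name.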

Additional observations from a re-analysis of the deposited data

Results flagged for a closer look

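Differences between times of fasting that passed the test were looked at again for 4 genes, since the time points were compared with the same fed pools. Rps27l was lower at 72 h than at 12 h by a log2 difference of -1.21, Rps27 by -1.32 and the Rpl27a probe A_65_P12906 by -0.93. The Rpl27 probe A_65_P08394 was higher at 72 h than at 24 h by 0.56 and than at 12 h by 0.63. The 12 h and 24 h arrays share a file format that the 72 h arrays do not, so these differences cannot be told apart from the format. For Rps27, the value of 1.65 on the array of 12 h pool 3 was the highest of its 12.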

How the results depend on the processing

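Alternatives moved the number of members called more often than the direction of a named member. At 12 h against fed, 6 members were called as reported, 3 with loess within each array and 30 with median centring. With only the arrays of the groups compared, 0 were called, beside 0.00986% of all probes. From the deposited log10 ratio 2 were called, 12 directly against the reference and 3 without fed pool 3 and 12 h pool 3. At 24 h the 3 became 6 with loess, 31 with median centring, 14 in the Cy3 channel alone, 5 with only the arrays compared, 6 directly against the reference and 9 without the 2 arrays. At 72 h the 4 became 23 with median centring, 7 directly against the reference and 7 without the 2 arrays. From 12 h to 24 h, Cy3 alone gave 3 in place of 0. From 24 h to 72 h the 1 became 0 with no background correction, with plain subtraction and with median centring, 5 in Cy3 alone, 3 with only the arrays compared and 5 without the 2 arrays. From 12 h to 72 h the 4 became 1 with median centring, 12 in Cy3 alone, 2 with only the arrays compared, 2 from the deposited ratio and 8 without the 2 arrays. The median difference of the members at 12 h was 0.0454 with loess, -0.77 with median centring, 0.0541 in Cy3 alone and 0.0901 without the 2 arrays, and with median centring it was -0.76 at 24 h, -0.73 at 72 h, 0.0036 from 12 h to 24 h and 0.0186 from 12 h to 72 h, the last being -0.36 in Cy3 alone. Among the calls of named members, the sign turned in Cy3 alone for Rpl10 at 12 h (-0.71) and for the Rpl5 probe A_65_P15308 at 12 h (0.20). The cause was not tested. The share of all probes called moved too. At 12 h it was 10.8% as reported, 11.3% with loess, 14.9% with median centring, 0.00986% with only the arrays compared, 7.86% from the deposited ratio, 23.5% directly against the reference and 4.7% without the 2 arrays. At 24 h it was 10.1%, and 19.7% with loess, 19.2% with median centring, 24.6% in Cy3 alone, 16% with only the arrays compared, 15.6% directly against the reference and 16.6% without the 2 arrays, where the members' own shares were 9.23%, 47.7%, 21.5%, 7.69%, 9.23% and 14.5%. At 72 h it was 10.6%, and 14% with median centring, 24.9% directly against the reference and 14.6% without the 2 arrays. From 12 h to 24 h it was 8.28% in Cy3 alone. From 24 h to 72 h it was 8.76% with no background correction, 9.62% with plain subtraction, 6.2% with median centring, 16.7% in Cy3 alone, 22.1% with only the arrays compared and 24.7% without the 2 arrays. From 12 h to 72 h it was 3.27% with median centring, 18% in Cy3 alone, 3.06% with only the arrays compared, 7.28% from the deposited ratio and 14.1% without the 2 arrays. The omission of fed pool 3 with 12 h pool 3 and the keeping of outlier spots were chosen after seeing the data.

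Leaving out 1 array at a time gave 0 to 12 calls at 12 h, 0 to 10 at 24 h, 1 to 9 at 72 h, 0 to 5 from 12 h to 24 h, 0 to 2 from 24 h to 72 h and 1 to 9 from 12 h to 72 h. The medians then ran from -0.20 to 0.0395, -0.36 to -0.14, -0.30 to -0.05, -0.28 to -0.06, -0.06 to 0.08 and -0.22 to -0.06 in the same order. The counts stand without the share of all probes called in the same fits, so they are not read as particular to the members. The pool numbers name different mice, and arrays with the same number did not deviate together (correlations from -0.29 to 0.13, and 4 of 12 arrays correlated best with their own number). With the pool number as a replicate block, 3 members were called at 12 h, 1 at 72 h and 0 from 24 h to 72 h, against 6.14%, 8.39% and 8.06% of all probes.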

Other observations

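Genes that build ribosomes and genes that signal to them were read on the same arrays. Of 22 probes for 15 genes of ribosome biogenesis, 1 was called higher and 1 lower at 12 h, none at 24 h, and 1 higher and 2 lower at 72 h against fed. Ncl, the nucleolar protein nucleolin, differed by 0.98 at 12 h on 1 of its probes (SE 0.26, adjusted p = 0.031, limma), and no other probe of it was called. Nol1 and Pes1, which act in the maturation of the large subunit, differed by -0.86 and -0.56 at 72 h (adjusted p = 0.013 and 0.033). For Pes1 this was 1 of 2 probes, and the other was not called. Rpo1-4 was called lower at 12 h on 1 probe (-0.86) and higher at 72 h on another (0.51), so the 2 calls are from different comparisons. Without the arrays of fed pool 3 and 12 h pool 3, Nol1 and the same probe of Pes1 were still called (-0.81 and -0.61, adjusted p = 0.021 for both). The other Pes1 probe was -0.07 at 72 h. The Ncl probe was 0.65 at 12 h (adjusted p = 0.15), its other probes were 0.16 and -0.22, and neither probe of Rpo1-4 was called. The list then had 1 probe higher at 12 h and 2 lower at 72 h.

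Of 13 probes for 12 genes of growth signalling, 2 were called higher and 2 lower at 12 h, 1 higher at 24 h and 2 lower at 72 h. Eif4ebp1, whose protein holds back cap-dependent translation until mTOR phosphorylates it, differed by 1.30 at 12 h (adjusted p = 0.013). Rheb, the GTPase that activates mTOR, differed by -0.66 at 12 h and -0.83 at 72 h (adjusted p = 0.038 and 0.01), and Eif4e, the cap-binding factor, by -0.81 and -0.61 (adjusted p = 0.025 and 0.045). Rps6ka1, an S6 kinase of the RSK family, had 2 probes, of which only 1 was called at 12 h (1.44, adjusted p = 0.015) and only 1 at 24 h (1.42, adjusted p = 0.016). Without the same 2 arrays, Eif4ebp1 was still called at 12 h, and both probes of Rps6ka1 were called at 12 h and 24 h. Rheb and Eif4e were still called at 72 h, but Rheb (-0.48, adjusted p = 0.15) and Eif4e (-0.41, adjusted p = 0.19) were not called at 12 h. In that fit 3 probes of the list were higher at 12 h, 4 higher and 1 lower at 24 h and 2 lower at 72 h.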
